A study of Homo sapiens with 20 samples.

Results

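The genes described here make, sense and move cholesterol and fatty acids, and many are known targets of the sterol regulatory element binding proteins, or SREBPs. They were chosen by symbol from a list of 35 genes for sterol and fatty acid synthesis, uptake and efflux. Of the 35 symbols, 34 were among the 20314 genes of the deposited counts, and the level of ACACA was not analysed here. Of these 34 genes, 33 had enough counts to be tested, and NPC1L1 did not. Together the 34 genes took 0.51% of all counts in untreated cells, 0.501% at 1.5 h post-IR, 0.309% at 7 days post-IR and 0.352% with the knockdown of NFKBIA, where IR stands for ionizing radiation.

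Cells make cholesterol from acetyl-CoA through mevalonate, farnesyl diphosphate, squalene and lanosterol. When membranes of the endoplasmic reticulum are low in sterol, the escort protein SCAP carries the SREBP precursors to the Golgi, where proteases release the part that enters the nucleus, and INSIG proteins hold SCAP back when sterol is plentiful. SREBP-2, encoded by SREBF2, is best known for raising genes of cholesterol synthesis, SREBP-1, encoded by SREBF1, for those of fatty acid synthesis, and oxysterols act through the liver X receptors to raise efflux genes such as ABCA1.

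The 20 libraries of RNA come from the osteosarcoma line U2-OS, kept in DMEM with FCS, and fall into 4 groups of 5. One group was untreated. A pair of groups received 20 Gy and was harvested 1.5 h or 7 days later (the labels give the first time as 90 minutes). The last group carried a knockdown of NFKBIA, which encodes the NF-κB inhibitor IκBα, by shRNA and was not irradiated. The study's methods name both pTRIPz, a doxycycline-inducible vector, and pGIPZ for shRNAs to this target, with clones selected by puromycin and, as controls, scrambled shRNAs under doxycycline. The labels do not say which vector the knockdown libraries carry, though a figure legend of the study refers its sequenced knockdown to the doxycycline-inducible one, and the labels of the untreated group mention no vector, doxycycline or scrambled shRNA. No library with a scrambled shRNA was analysed here, so the shRNA's target and the vector, drug and selection cannot be told apart as sources of a difference. The study calls the libraries of a group biological replicates, but the labels name no separate cultures, and the p values measure the spread between these samples. The comparisons of the 1.5 h, 7 days and knockdown groups with untreated cells share the same 5 control libraries, and the 7 days libraries enter further comparisons, so values are set side by side and overlaps between comparisons are not counted.

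Total counts per library ran from 22535659 to 40390961 in untreated cells, 34345867 to 39546228 at 1.5 h, 27547705 to 34307447 at 7 days and 26693224 to 33461262 with the knockdown. Levels are CPM, counts divided by the TMM-adjusted total of their library in units of 1e6, and means are given ± SD over 5 libraries. The sample descriptions name sequencing lanes. Lane 2 held untreated replicates 1 to 4, lane 3 untreated replicate 5 with 1.5 h replicates 1 to 3, lane 4 the other 1.5 h libraries with 7 days replicates 1 and 2, lane 5 the other 7 days libraries with knockdown replicate 1, and lane 6 the rest of the knockdown. Lane and group are therefore largely bound together, and knockdown and untreated libraries never shared a lane.

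NFKBIA itself, the target of the shRNA, was measured at 28.6, 23.5, 27.4, 34.99 and 42.0 CPM in untreated replicates 1 to 5 and at 13.0, 11.2, 12.1, 12.0 and 12.4 CPM in the knockdown. At 1.5 h its level was 88.3, 76.3, 80.0, 78.8 and 87.0 CPM and at 7 days 30.4, 28.4, 32.4, 32.0 and 30.5 CPM. The knockdown libraries were all below, and the 1.5 h libraries all above, every untreated library, while the 7 days libraries lay within the untreated range. Against untreated cells the log2 fold change was -1.36 ± 0.11, adjusted p = 4.87e-09 in the knockdown, 1.40 ± 0.10, adjusted p = 3.61e-09 at 1.5 h and -0.02 ± 0.10, adjusted p = 0.886 at 7 days. When lane was a factor these became -1.82, 0.96 and -0.54, the last then past the threshold (adjusted p = 0.0207).

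CDKN1A, the p53 target that encodes the cell cycle inhibitor p21, averaged 225 ± 17.2 CPM in untreated cells, 690 ± 24.3 at 1.5 h, 816 ± 13.3 at 7 days and 260 ± 13.4 with the knockdown. It rose in both irradiated groups, with log2 fold changes of 1.61 ± 0.05 and 1.86 ± 0.05 (± standard error).

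MKI67, a gene of dividing cells, was at 657, 768, 801, 434 and 1817 CPM in untreated replicates 1 to 5, at 531, 619, 612, 593 and 620 at 1.5 h, at 279, 255, 265, 273 and 264 at 7 days and at 461, 501, 466, 531 and 471 with the knockdown. Untreated replicate 5 stood far above the other untreated libraries, and it also had the lowest total count of all libraries, the lowest TMM factor, 0.933, and a lane apart from its group. MKI67 fell at 7 days (log2 fold change -1.74 ± 0.23, adjusted p = 1.23e-06) and in the knockdown (-0.88 ± 0.23, adjusted p = 0.0038), but without untreated replicate 5 the knockdown value was -0.47 and no longer past the threshold. At 1.5 h the value was -0.59 ± 0.23, adjusted p = 0.0669, and it passed without untreated replicate 1 (-0.68) or replicate 4 (-0.78). In the fit with lane as a factor, where these values rest on untreated replicate 5, MKI67 was at -1.63 at 1.5 h and passed (adjusted p = 2.12e-06), at -2.81 at 7 days and at -2.02 in the knockdown. In a bulk library, fewer cells of a kind and less RNA per cell cannot be told apart, and the part that the lower MKI67 has in the results on lipid genes was not tested.

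Markers fixed for the cell line matched a mesenchymal line only in part. VIM averaged 2403, SPARC 2137, COL1A1 1974 and RUNX2 116 CPM in untreated cells, whereas COL1A2, the partner chain of COL1A1, was at 0.411 CPM. Markers of other cell types that could matter for lipid genes were near 0. The summed adipocyte markers ADIPOQ, PLIN1 and FABP4 stayed at or under 0.821 CPM, the hepatocyte markers ALB and APOA1 at or under 1.29, the macrophage markers CD14 and CSF1R at or under 1.43, and PTPRC of leucocytes at or under 1.64 CPM in every library. EPCAM and CDH1, epithelial markers, summed to at most 6.31 CPM. Of 16 markers listed, PECAM1 was not analysed here.

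In untreated cells the genes covered a wide range when levels were set per length, in CPM per kilobase of a width column whose making the sources used here do not describe. SCD, which puts the first double bond into stearate, led at 145 ± 11.1 CPM per kilobase, followed by fatty acid synthase, FASN, at 67.5 ± 8.46, SREBF2 at 62.6 ± 5.27 and farnesyl diphosphate synthase, FDPS, at 56.0 ± 7.46. The gap from SCD to FASN was 6.97 times the larger SD, while from FASN through SREBF2, FDPS, SQLE, FADS2, HMGCS1 and FDFT1 to SREBF1 neighbours lay within 1 SD of each other. From SREBF1 down to MVD the one gap over 1 SD was that below SREBF1, at 1.37. Clearer gaps lay below MVD (19.3 CPM per kilobase), GGPS1 (10.6) and HSD17B7 (5.34), at 2.25, 2.21 and 2.31 times the larger SD, and neighbours between those steps lay within 1 SD. At the low end stood TM7SF2 at 2.89 ± 0.263, the sterol exporter ABCA1 at 1.04 ± 0.240 and NPC1L1, the intestinal uptake protein, at 0.00943 ± 0.00700 CPM per kilobase. The gaps below TM7SF2 and ABCA1 were 7.05 and 4.27 times the larger SD.

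The main outcome was a broad lower level of synthesis genes at 7 days and in the knockdown, and little change at 1.5 h. A gene is said to have risen or fallen where its log2 fold change exceeded 0.5 in size with an adjusted p under 0.05 over the 14992 genes tested. At 7 days against untreated cells, the question of the late, senescent phase, 19 of the 33 genes fell and 1 rose, where 14.4% of all genes tested fell and 16.7% rose. Their median log2 fold change was -0.68, beside 0.01 over all genes, of which 31.1% were called in either direction. In the knockdown against untreated cells, which asks what depletion of the inhibitor does without irradiation, 20 of 33 fell and 1 rose, beside 7.53% and 5.18% of all genes, with a median of -0.63 against -0.01 and 12.7% of all genes called in either direction. At 1.5 h, the acute phase, 2 rose, beside 2.08% of all genes, and edgeR found 0 that fell, beside 1.57%, with 3.66% of all genes called in either direction. Without adjustment 4 were higher and 5 lower at 1.5 h with p under 0.05, beside 15.7% and 17.7% of all genes, with 2 and 28 at 7 days, beside 34.5% and 32.8%, and 3 and 24 in the knockdown, beside 23.5% and 25.1%. At 1.5 h DESeq2 gave 2 and 0, and the median was -0.05 against -0.03 over all genes. The counts changed when sequencing lane was a factor, to 17 lower and 3 higher at 7 days, beside 41.3% of all genes called in either direction, and 13 lower and 2 higher in the knockdown, beside 27.3%.

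Counted by libraries instead of the fit, 22 of 33 genes had every 7 days library below every untreated library and 1 had every one above, beside 20.4% and 24.4% of all genes. The same counts for the knockdown were 22 and 1, beside 11.8% and 12.3%, and for 1.5 h they were 3 and 1, beside 4.85% and 7.42%. The spread of these genes between libraries was close to that of all genes, with a median coefficient of variation of 16.2% in untreated cells (15.5% over all genes) and 3.81% at 7 days (4.46%). The untreated libraries thus varied more among themselves than those of any other group, for the lipid genes and for all genes.

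**Figure D1:**
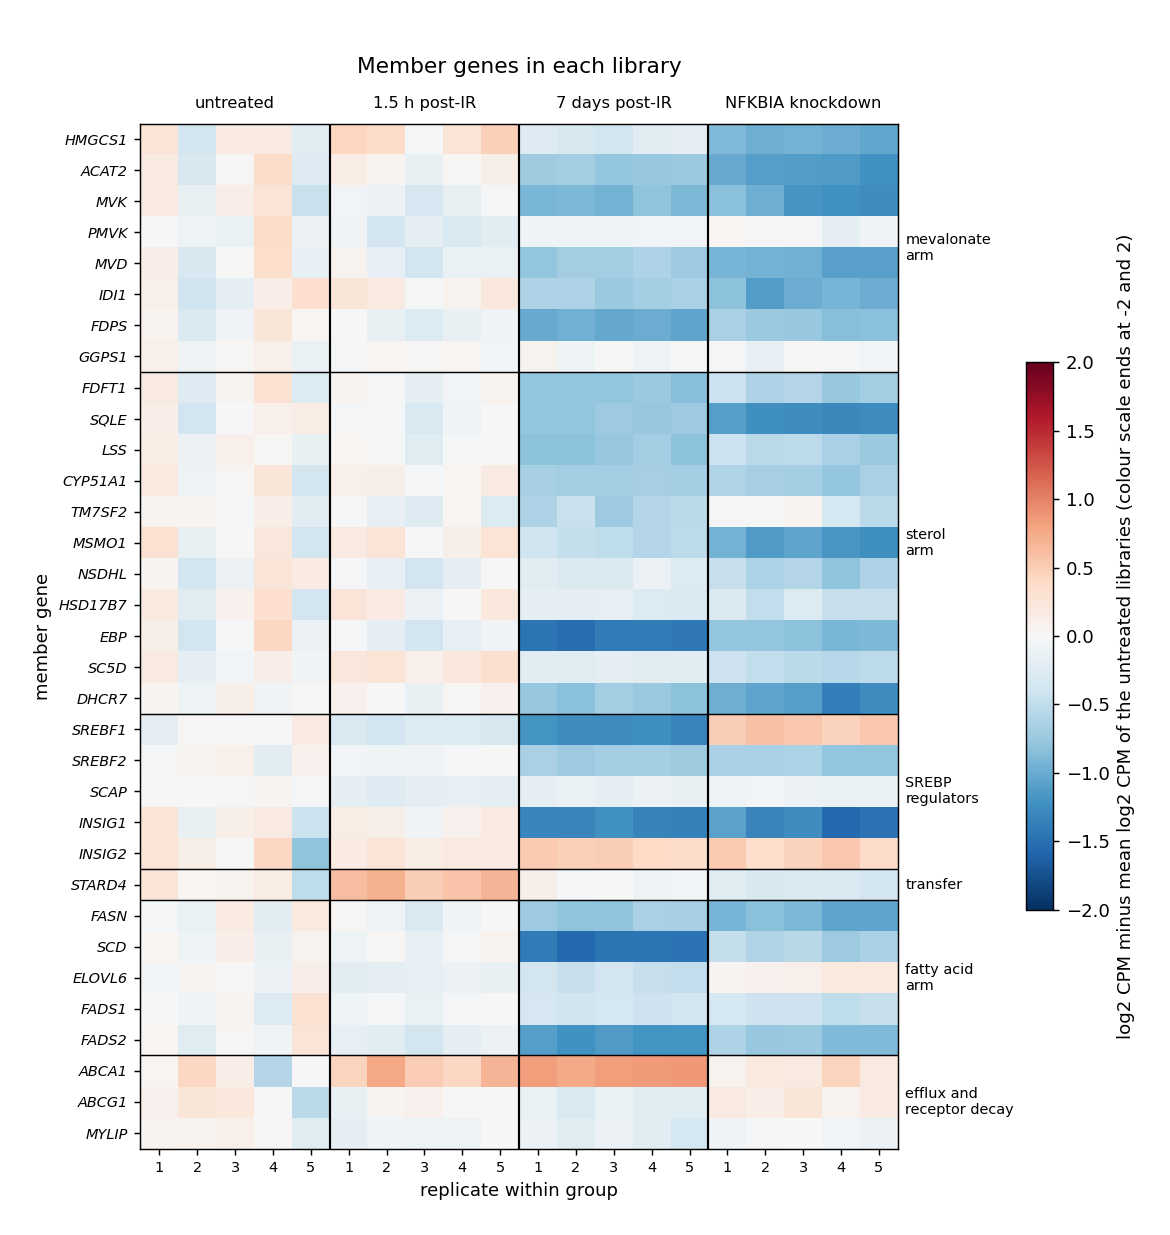
Log2 CPM of the 33 tested genes (vertical, grouped by role) in each of the 20 libraries (horizontal, by group and replicate), minus the mean of the untreated libraries, with colours ending at -2 and 2. The 7 days and knockdown columns are low for most enzymes of synthesis, SREBF1 is low at 7 days and high in the knockdown, and STARD4 is high at 1.5 h.

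**Figure D2:**
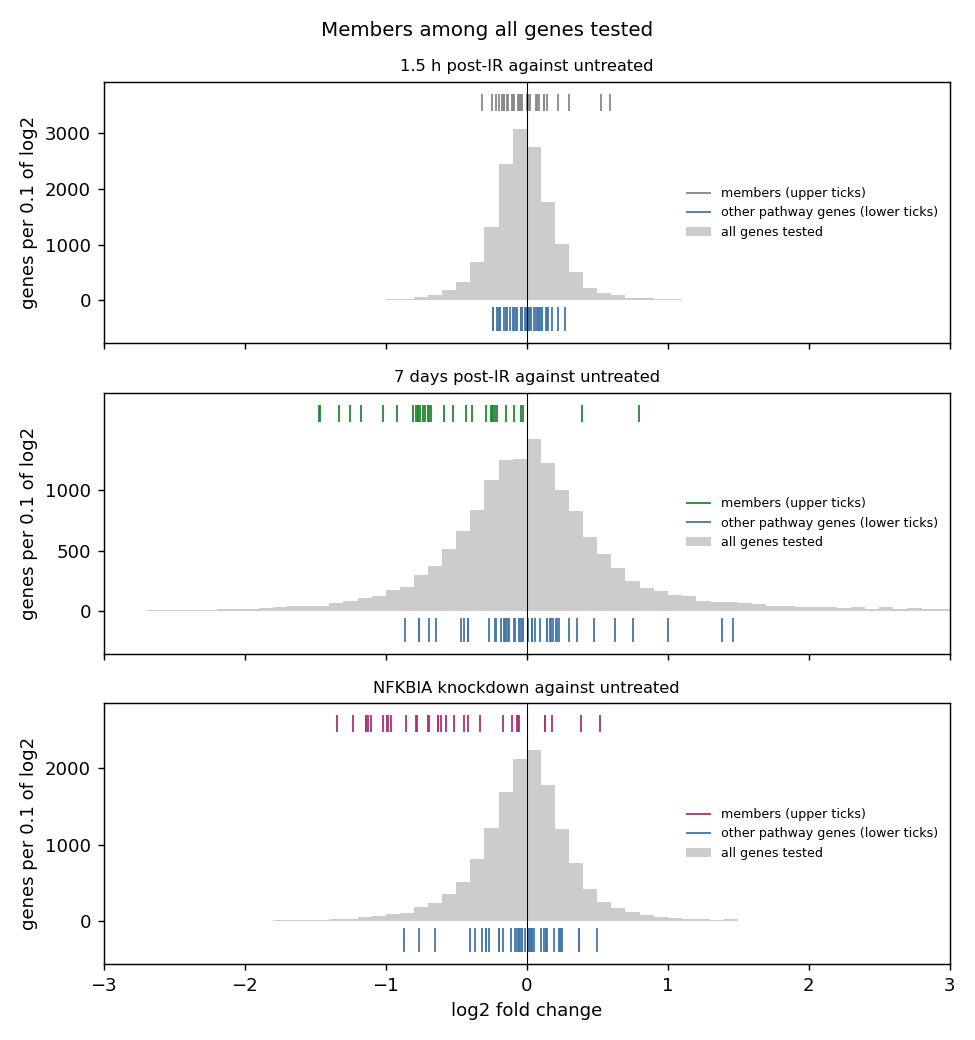
Histogram of log2 fold changes of all 14992 genes tested in bins of 0.1 for the comparisons with untreated cells, with the 33 lipid genes as upper ticks and other pathway genes as lower ticks. At 7 days and in the knockdown the upper ticks sit mostly left of 0, with medians of -0.68 and -0.63, while at 1.5 h they sit around 0.

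Among the regulators, SREBF2 (ENSG00000198911) was at 459, 487, 502, 407 and 500 CPM in untreated replicates 1 to 5 and at 300, 285, 294, 293 and 287 CPM at 7 days. It was at 301, 300, 303, 272 and 273 CPM in the knockdown and at 453, 444, 447, 461 and 468 CPM at 1.5 h. All 7 days and knockdown libraries lay below all untreated ones, and the 1.5 h libraries lay within the untreated range. SREBF2 fell at 7 days (log2 fold change -0.69 ± 0.05, adjusted p = 4.04e-10) and in the knockdown (-0.70 ± 0.05, adjusted p = 2.21e-09). An exact two-sided permutation test of its log2 CPM gave p = 0.00794 for each, the smallest that 5 libraries against 5 allow.

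SREBF1 (ENSG00000072310) went opposite ways. Its level was 238, 276, 272, 270 and 306 CPM in untreated cells, 119, 115, 114, 115 and 109 at 7 days and 381, 407, 396, 373 and 394 in the knockdown. The 7 days libraries were all lower and the knockdown libraries all higher than any untreated library. SREBF1 fell at 7 days (log2 fold change -1.25 ± 0.05, adjusted p = 3.13e-14) and rose in the knockdown (0.52 ± 0.05, adjusted p = 1.19e-07). The rise stood just past the threshold and did not pass it without untreated replicate 1 (0.47) or replicate 4 (0.49), or with lane as a factor (0.35). At 1.5 h SREBF1 was at 220, 208, 225, 224 and 217 CPM, below every untreated library, with a log2 fold change of -0.32 ± 0.05, adjusted p = 1.75e-04, which is short of the threshold on size.

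INSIG1 (ENSG00000186480), which retains SCAP and is itself an SREBP target, was at 49.3, 36.9, 44.3, 46.3 and 30.3 CPM in untreated cells and at 45.4, 44.3, 39.0, 43.3 and 46.1 CPM at 1.5 h. It was at 16.5, 16.3, 17.6, 16.2 and 15.9 CPM at 7 days and at 19.4, 16.3, 17.2, 13.9 and 14.7 CPM in the knockdown. The late and knockdown libraries did not overlap the untreated ones, and INSIG1 fell in both, with log2 fold changes of -1.33 ± 0.11, adjusted p = 6.04e-10 and -1.35 ± 0.11, adjusted p = 3.33e-09. Its paralog INSIG2, by contrast, was at 25.7, 23.1, 21.6, 28.3 and 12.3 CPM in untreated cells, with replicate 5 far below the rest, and at 24.0, 25.6, 23.7, 24.2 and 24.0 at 1.5 h, 30.7, 29.7, 30.0, 28.1 and 27.7 at 7 days and 30.7, 27.4, 29.3, 30.9 and 27.7 in the knockdown. Its log2 fold changes of 0.12, 0.39 and 0.39 did not pass the threshold. With lane as a factor, where the values rest on untreated replicate 5, INSIG2 was higher in each of these comparisons.

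SCAP, the escort protein, had a narrow spread, at 124, 124, 123, 129 and 121 CPM in untreated cells, 109, 104, 110, 111 and 108 at 1.5 h, 110, 113, 110, 115 and 113 at 7 days and 116, 120, 115, 113 and 113 in the knockdown. Every library of the other groups was below every untreated library, yet the log2 fold changes of -0.20, -0.15 and -0.11 were too small to pass. Of the 5 regulators, 3 fell at 7 days, beside 14.4% of all genes, and in the knockdown 2 fell and 1 rose, beside 7.53% and 5.18%.

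**Figure D3:**
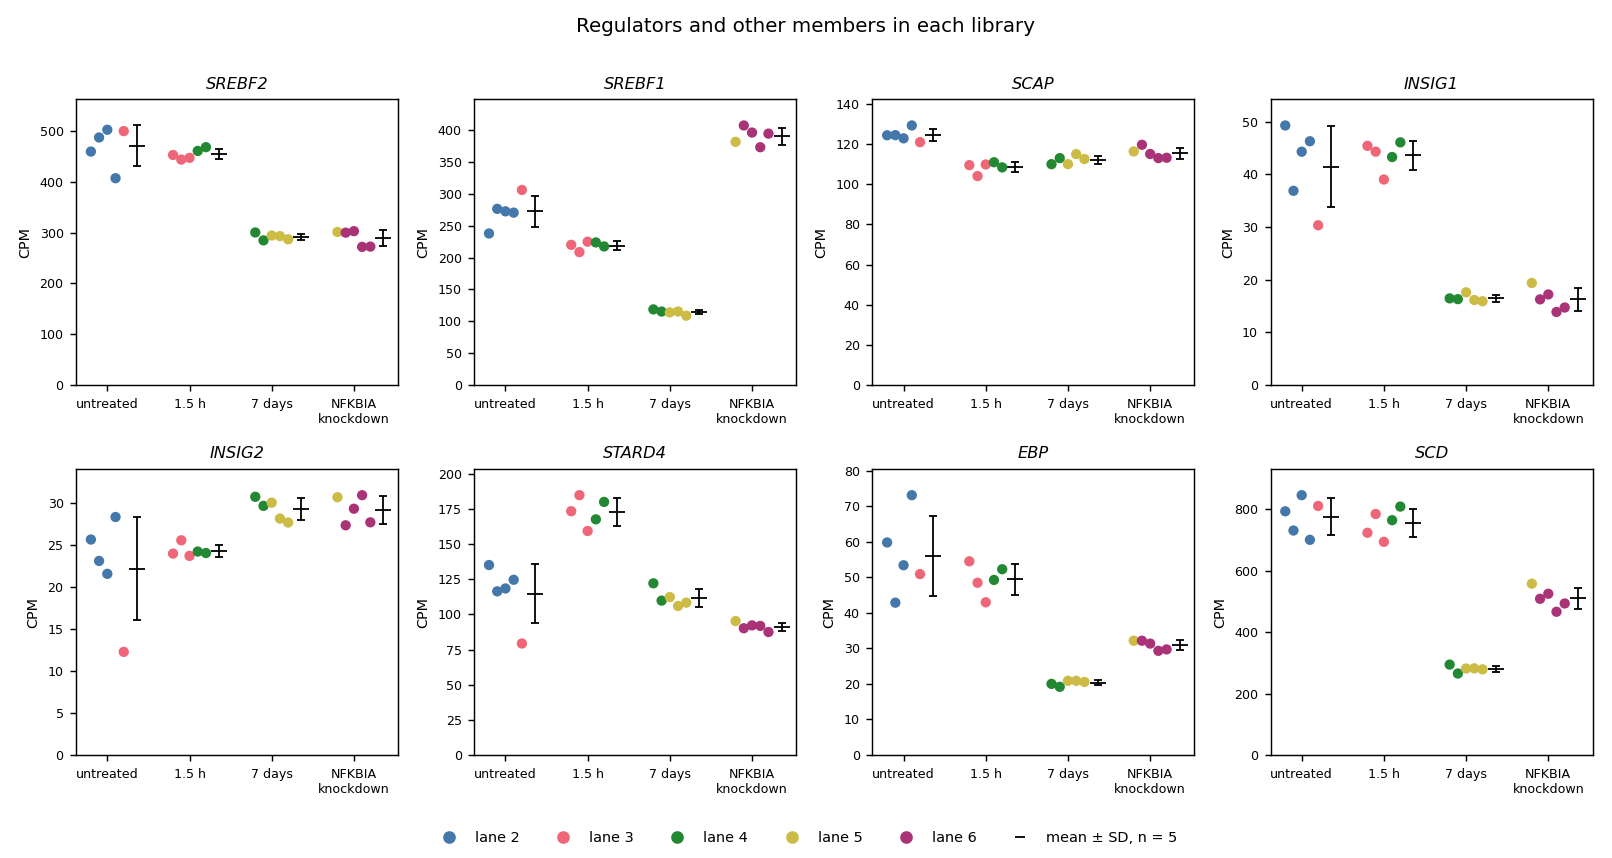
CPM in each library (points, coloured by sequencing lane, with the group mean and SD) of SREBF2, SREBF1, SCAP, INSIG1, INSIG2, STARD4, EBP and SCD in the 4 groups. SREBF1 is lowest at 7 days and highest in the knockdown, SREBF2 and INSIG1 are low in both, and STARD4 is highest at 1.5 h.

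Because many of these genes moved together, the RefSeq windows from 250 bases before to 50 bases after their start sites (GRCh38.p14) were searched on both strands. The motifs were TCACCCCAC, the core of a sterol regulatory element, CCAAT, bound by NF-Y, GGGCGG, bound by Sp1, and the DR4 element of the liver X receptors. Of the 35 genes, 30 matched, with 41 windows in all, among them ACACA and NPC1L1, whose changes were not tested. The others were ACAT2, FDFT1, SQLE, FASN and ABCG1. CCAAT was in 25 of the 41 windows (61.0%), against 34.6% of all 35116 windows, and GGGCGG in 35 (85.4%), against 45.0%. TCACCCCAC was in 1 of 41, that of SREBF2, against 0.430% of all windows, and DR4 was in 0 of 41, against 0.0199%. Counted over the 28 matched genes that were tested, 13 of the 15 that fell at 7 days held CCAAT and 7 of the other 13, and 15 of the 16 that fell in the knockdown and 5 of the other 12. GGGCGG was held by 15 of the 15 that fell at 7 days and 12 of the other 13. It was held by 15 of the 16 that fell in the knockdown and 12 of the other 12. Whether either motif differs between these sets was not tested. Genes with several windows had more chances to hold a motif. A match describes letters in the window and shows no binding.

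Stretches of 5 windows are given below for the regulators that moved, with MVD and EBP as enzymes that fell at 7 days and in the knockdown, chosen after their values were seen. Capitals mark the motifs read on either strand, so that ATTGG is CCAAT reversed and CCGCCC is GGGCGG reversed. The stretches are SREBF2 (chr22:41832952-41833104, plus strand), INSIG1 (chr7:155297628-155297823, plus strand), MVD (chr16:88663152-88663310, minus strand), EBP (chrX:48521597-48521802, plus strand) and SREBF1 (chr17:17836992-17837097, minus strand), each written 5′ to 3′ along the gene.
SREBF2: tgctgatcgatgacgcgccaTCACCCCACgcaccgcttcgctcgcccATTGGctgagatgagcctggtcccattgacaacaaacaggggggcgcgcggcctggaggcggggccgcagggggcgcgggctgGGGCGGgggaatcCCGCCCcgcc
INSIG1: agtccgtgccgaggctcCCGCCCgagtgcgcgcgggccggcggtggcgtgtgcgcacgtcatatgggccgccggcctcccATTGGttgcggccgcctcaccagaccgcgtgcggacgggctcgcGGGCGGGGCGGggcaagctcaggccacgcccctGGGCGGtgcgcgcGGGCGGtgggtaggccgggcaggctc
MVD: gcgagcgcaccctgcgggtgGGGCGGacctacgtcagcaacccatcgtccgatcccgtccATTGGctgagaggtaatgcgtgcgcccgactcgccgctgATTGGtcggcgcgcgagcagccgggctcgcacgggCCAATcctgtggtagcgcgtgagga
EBP: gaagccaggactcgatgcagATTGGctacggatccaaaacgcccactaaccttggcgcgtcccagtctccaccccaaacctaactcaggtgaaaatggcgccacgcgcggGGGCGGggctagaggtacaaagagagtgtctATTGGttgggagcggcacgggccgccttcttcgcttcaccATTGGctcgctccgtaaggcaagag
SREBF1: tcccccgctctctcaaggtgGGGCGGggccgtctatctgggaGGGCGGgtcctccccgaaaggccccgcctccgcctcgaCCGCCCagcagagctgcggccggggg

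In SREBF2 the TCACCCCAC begins at position -133 and the CCAAT at -106 from the start site, and a further GGGCGG match overlaps the last capitals, runs past the stretch and is left in lower case. INSIG1 holds its CCAAT at -170 among several GGGCGG matches, of which a pair overlap each other. MVD and EBP each hold 3 CCAAT and 1 GGGCGG. SREBF1, the regulator that fell at 7 days but rose in the knockdown, has GGGCGG and no CCAAT in its window, as is also the case for INSIG2, SCAP, PMVK, CYP51A1, ABCA1, ELOVL6 and FADS1, of which CYP51A1 fell in both comparisons.

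The mevalonate arm leads from acetyl-CoA to farnesyl and geranylgeranyl diphosphate. Of its 8 genes, 5 fell at 7 days and 6 in the knockdown, beside 14.4% and 7.53% of all genes. HMGCS1, which makes HMG-CoA, was at 241, 158, 227, 226 and 176 CPM in untreated cells and at 110, 103, 105, 101 and 98.2 CPM in the knockdown. At 1.5 h it was at 274, 265, 198, 244 and 282 CPM and at 7 days at 170, 162, 156, 174 and 180 CPM. Only the knockdown libraries stood clear of the untreated ones. HMGCS1 fell in the knockdown (log2 fold change -0.99 ± 0.10, adjusted p = 1.76e-07), while its values of -0.29 at 7 days and 0.30 at 1.5 h did not pass.

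FDPS, which builds farnesyl diphosphate, was at 216, 170, 197, 245 and 213 CPM in untreated cells, at 205, 187, 171, 187 and 197 at 1.5 h, at 102, 106, 102, 104 and 99.5 at 7 days and at 132, 124, 122, 114 and 116 in the knockdown. The untreated, 7 days and knockdown libraries did not overlap, with those at 7 days lowest, and the 1.5 h libraries lay within the untreated range. FDPS fell at 7 days (-1.02 ± 0.07, adjusted p = 1.31e-10) and in the knockdown (-0.78 ± 0.07, adjusted p = 4.66e-08). MVD, the decarboxylase that makes isopentenyl diphosphate, was at 98.2, 71.9, 89.1, 115 and 80.5 CPM in untreated cells, at 94.4, 80.1, 68.6, 81.9 and 81.7 at 1.5 h, at 52.1, 55.5, 55.2, 58.8 and 54.5 at 7 days and at 46.9, 46.6, 46.2, 42.3 and 42.4 in the knockdown. Its knockdown libraries were the lowest, and it fell in both, with log2 fold changes of -0.72 ± 0.10 and -1.02 ± 0.10.

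The thiolase ACAT2 was at 103, 72.8, 92.9, 118 and 76.2 CPM in untreated cells, 100, 95.9, 82.1, 92.5 and 98.6 at 1.5 h, 55.6, 56.3, 53.2, 54.1 and 54.6 at 7 days and 45.1, 42.4, 41.8, 41.4 and 39.4 in the knockdown. Its knockdown libraries were lowest, those at 7 days came next, both below all untreated ones, and ACAT2 fell in both (log2 fold changes -0.76 and -1.14). With lane as a factor ACAT2 did not pass at 7 days. Mevalonate kinase, MVK, was at 36.4, 29.1, 35.5, 39.1 and 23.6 CPM in untreated cells, 30.9, 29.7, 25.6, 28.97 and 31.7 at 1.5 h, 17.1, 17.3, 16.8, 18.5 and 17.3 at 7 days and 18.0, 16.5, 14.2, 14.0 and 13.6 in the knockdown. Its late and knockdown libraries overlapped each other below the untreated ones, and MVK fell in both (-0.92 and -1.10). The knockdown fall of MVK did not pass with lane as a factor. The isomerase IDI1 was at 42.0, 29.8, 34.5, 43.0 and 49.4 CPM in untreated cells, 46.2, 44.4, 38.5, 41.2 and 45.4 at 1.5 h, 25.7, 25.4, 23.3, 24.3 and 25.1 at 7 days and 22.3, 18.0, 19.701, 20.6 and 19.6 in the knockdown. Here untreated replicate 5 was the highest library, the knockdown libraries were again lowest, and IDI1 fell in both (-0.68 and -0.98). The phosphomevalonate kinase PMVK and the geranylgeranyl diphosphate synthase GGPS1 did not follow them. PMVK averaged 35.2 ± 5.71 CPM in untreated cells, 33.0 ± 0.423 at 7 days and 33.7 ± 1.99 in the knockdown, and GGPS1 49.3 ± 3.76, 48.5 ± 2.19 and 47.5 ± 2.17. Their log2 fold changes were between -0.09 and -0.02 in the 7 days and knockdown comparisons, and their libraries overlapped the untreated ones.

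The sterol arm takes farnesyl diphosphate through squalene and lanosterol to the last steps before cholesterol. Of its 11 genes, 8 fell at 7 days and 9 in the knockdown, where 14.4% and 7.53% of all genes did. With lane as a factor, FDFT1, LSS, CYP51A1, MSMO1, NSDHL, EBP and SC5D did not pass in the knockdown. At 7 days CYP51A1, MSMO1 and TM7SF2 did not pass in that fit. The clearest at 7 days was EBP, the sterol isomerase, at 59.9, 42.9, 53.4, 73.2 and 50.9 CPM in untreated cells, 54.5, 48.5, 43.0, 49.3 and 52.3 at 1.5 h, 20.0, 19.2, 20.9, 20.9 and 20.6 at 7 days and 32.2, 32.2, 31.4, 29.3 and 29.7 in the knockdown. The 7 days libraries were lowest, the knockdown libraries lay between them and the untreated ones, and those at 1.5 h overlapped the untreated range. EBP fell at 7 days (log2 fold change -1.47 ± 0.10, adjusted p = 5.21e-11) and in the knockdown (-0.86 ± 0.10, adjusted p = 6.17e-07).

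SQLE, the squalene epoxidase that is a control point of the pathway, was at 252, 177, 232, 246 and 256 CPM in untreated cells, 227, 228, 187, 219 and 232 at 1.5 h, 133, 133, 139, 137 and 140 at 7 days and 108, 98.8, 97.5, 94.2 and 96.2 in the knockdown. Here the knockdown libraries were the lowest, and neither group overlapped the untreated libraries. SQLE fell in both (-0.77 ± 0.08, adjusted p = 3.45e-08 at 7 days and -1.23 ± 0.08, adjusted p = 2.28e-10 in the knockdown). DHCR7, which acts at the end of the pathway, was at 129, 115, 134, 118 and 124 CPM in untreated cells, 132, 124, 112, 125 and 132 at 1.5 h, 73.3, 69.3, 76.3, 74.0 and 69.9 at 7 days and 62.9, 59.7, 57.6, 48.1 and 52.1 in the knockdown. Again the knockdown libraries were lowest and did not overlap those at 7 days, which were below all untreated ones. Its log2 fold changes were -0.77 ± 0.07 and -1.14 ± 0.07.

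MSMO1, the methylsterol monooxygenase, was at 97.0, 70.5, 79.0, 91.9 and 60.03 CPM in untreated cells, 89.0, 93.8, 78.5, 85.1 and 94.8 at 1.5 h, 59.3, 56.3, 55.0, 52.3 and 54.5 at 7 days and 40.6, 36.0, 37.9, 34.9 and 33.5 in the knockdown. The knockdown libraries were clearly lowest, while the highest 7 days library lay just under the lowest untreated one. MSMO1 fell in the knockdown (-1.12 ± 0.10, adjusted p = 1.41e-08) and at 7 days (-0.52 ± 0.10, adjusted p = 7.25e-05), but the late fall did not pass without untreated replicate 1 (-0.44) or replicate 4 (-0.49). With lane as a factor MSMO1 passed in neither comparison.

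Squalene synthase, FDFT1, was at 231, 171, 212, 252 and 170 CPM in untreated cells, 212, 201, 178, 197 and 215 at 1.5 h, 118, 120, 119, 123 and 114 at 7 days and 152, 133, 136, 121 and 126 in the knockdown. Lanosterol synthase, LSS, was at 166, 138, 161, 153 and 136 CPM in untreated cells, 155, 146, 127, 146 and 154 at 1.5 h, 85.0, 85.5, 89.2, 92.5 and 85.0 at 7 days and 112, 104, 105, 95.6 and 90.3 in the knockdown. The lanosterol demethylase CYP51A1 was at 113, 91.9, 101, 117 and 76.5 CPM in untreated cells, 106, 108, 97.3, 101 and 111 at 1.5 h, 62.0, 60.6, 61.1, 62.4 and 61.5 at 7 days and 64.8, 62.4, 61.9, 57.4 and 63.0 in the knockdown. All 3 fell at 7 days and in the knockdown when lane was not a factor, while with it none passed in the knockdown (-0.21, -0.42 and -0.28) and CYP51A1 did not at 7 days (-0.35). Without that factor the log2 fold changes lay between -0.80 and -0.58, and no late or knockdown library reached the untreated range.

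The other sterol genes moved in one comparison or did not pass. The sterol reductase TM7SF2 was at 10.2, 10.2, 9.66, 10.8 and 8.42 CPM in untreated cells, 9.83, 8.73, 8.18, 10.0 and 8.16 at 1.5 h, 6.44, 7.23, 5.97, 6.57 and 6.77 at 7 days and 9.59, 9.55, 10.3, 7.70 and 6.73 in the knockdown. Its 7 days libraries were below all untreated ones and the knockdown libraries spread across both, and TM7SF2 fell at 7 days (-0.59 ± 0.10, adjusted p = 4.60e-05) but did not pass in the knockdown (-0.17). That late fall did not pass with lane as a factor. NSDHL, of the demethylation steps, was at 52.7, 39.5, 46.8, 61.0 and 57.0 CPM in untreated cells, 49.97, 45.2, 39.6, 44.5 and 50.6 at 1.5 h, 43.5, 41.4, 41.4, 46.9 and 42.2 at 7 days and 37.0, 32.7, 33.7, 29.1 and 33.1 in the knockdown. The knockdown libraries alone were below all untreated ones, and NSDHL fell there (-0.63 ± 0.10, adjusted p = 2.09e-05), with -0.25 at 7 days. The desaturase SC5D was at 54.1, 41.3, 45.8, 52.0 and 45.5 CPM in untreated cells, 55.6, 57.6, 50.7, 54.9 and 59.3 at 1.5 h, 40.5, 40.37, 42.0, 40.9 and 40.7 at 7 days and 35.8, 33.9, 32.6, 31.9 and 33.0 in the knockdown. It fell in the knockdown (-0.51 ± 0.06, adjusted p = 1.44e-06), where every library was below every other one of the series. The SC5D call sat at the threshold and did not pass without untreated replicate 1 (-0.46) or knockdown replicate 4 (-0.49). HSD17B7, which acts beside NSDHL, was at 24.7, 18.3, 22.9, 27.3 and 16.8 CPM in untreated cells, 25.9, 24.2, 20.1, 21.8 and 25.0 at 1.5 h, 19.04, 19.1, 19.3, 17.9 and 17.7 at 7 days and 17.7, 15.4, 18.0, 15.8 and 15.8 in the knockdown. It had log2 fold changes of -0.25 at 7 days and -0.41 in the knockdown, short of the threshold, though the knockdown value was -0.51 and past it without untreated replicate 5. Whether a gene that passed in one comparison and not in the other differed between 7 days and knockdown is given by the direct comparison of those groups.

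**Figure D4:**
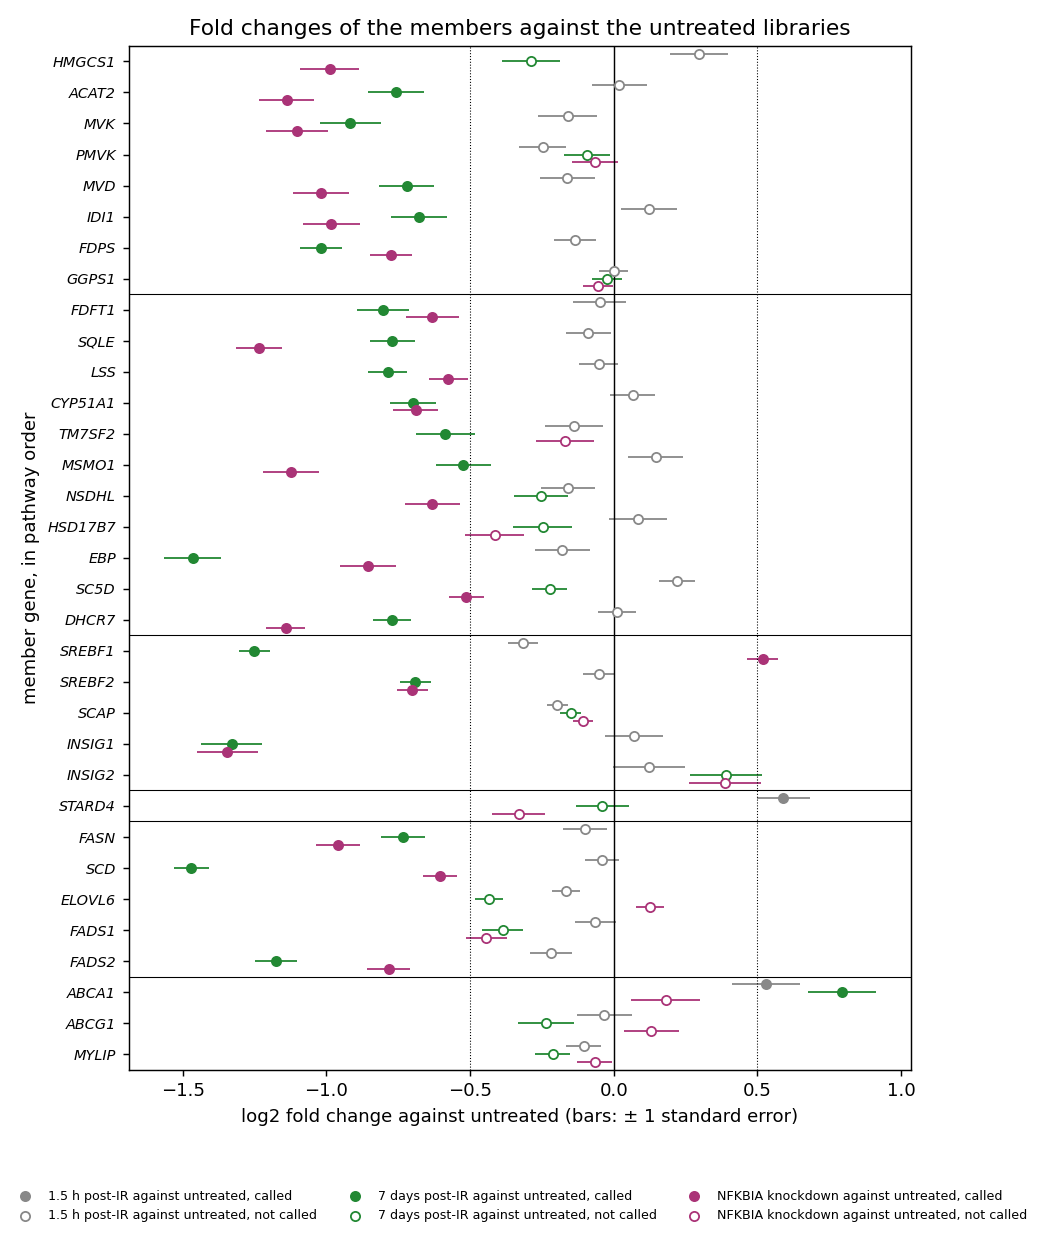
Log2 fold change ± 1 standard error against untreated cells for the lipid genes, ordered along the pathway, at 1.5 h, at 7 days and in the knockdown. Filled points passed the threshold. Most enzymes are filled and negative at 7 days and in the knockdown, while STARD4 and ABCA1 are the filled points at 1.5 h.

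In the fatty acid arm 3 of the 5 genes tested fell at 7 days and 3 in the knockdown, against 14.4% and 7.53% of all genes. SCD was at 794, 731, 846, 701 and 811 CPM in untreated cells, 724, 785, 694, 765 and 809 at 1.5 h, 294, 265, 281, 282 and 279 at 7 days and 558, 509, 525, 466 and 493 in the knockdown. The 7 days libraries were lowest and the knockdown libraries intermediate, without overlap, while those at 1.5 h lay mostly within the untreated range. SCD fell at 7 days (log2 fold change -1.47 ± 0.06, adjusted p = 2.01e-14) and in the knockdown (-0.61 ± 0.06, adjusted p = 7.90e-08).

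FASN, which makes palmitate, was at 591, 550, 678, 521 and 691 CPM in untreated cells, 609, 559, 489, 572 and 601 at 1.5 h, 364, 347, 346, 385 and 381 at 7 days and 317, 339, 322, 291 and 290 in the knockdown. Its order was the reverse of that of SCD, with the knockdown libraries lowest, and it fell in both (-0.73 ± 0.08 and -0.96 ± 0.08). The desaturase FADS2 was at 554, 457, 549, 517 and 647 CPM in untreated cells, 481, 469, 421, 472 and 500 at 1.5 h, 252, 234, 246, 237 and 236 at 7 days and 352, 321, 324, 294 and 292 in the knockdown. The 7 days libraries were all below the knockdown ones, and FADS2 fell in both, with log2 fold changes of -1.18 ± 0.07 and -0.78 ± 0.07.

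The neighbouring desaturase FADS1 was at 274, 260, 288, 229 and 340 CPM in untreated cells, 259, 270, 253, 270 and 278 at 1.5 h, 218, 209, 217, 206 and 213 at 7 days and 215, 206, 207, 194 and 200 in the knockdown. All its late and knockdown libraries were below the untreated ones, but at -0.39 and -0.44 it did not pass, and without untreated replicate 4 the knockdown value was -0.53 and passed. ELOVL6, which lengthens palmitate, was at 47.5, 50.8, 48.6, 45.2 and 53.9 CPM in untreated cells, 42.2, 43.4, 43.7, 45.2 and 44.5 at 1.5 h, 38.1, 35.6, 37.6, 35.8 and 34.9 at 7 days and 51.2, 51.9, 53.0, 56.2 and 56.2 in the knockdown. The highest library at 1.5 h lay just under the lowest untreated one. At 7 days every library was below the untreated ones, at a log2 fold change of -0.43, and in the knockdown the value was 0.13. Neither passed.

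STARD4, an SREBP target that carries sterol between membranes, was at 135, 116, 118, 125 and 79.3 CPM in untreated cells and at 173, 185, 159, 168 and 180 CPM at 1.5 h. At 7 days it was at 122, 110, 112, 106 and 108 CPM and in the knockdown at 95.2, 90.1, 92.2, 91.8 and 87.5 CPM. All libraries at 1.5 h were above all others, and the late and knockdown libraries overlapped the untreated ones, of which replicate 5 was the lowest. STARD4 rose at 1.5 h (log2 fold change 0.59 ± 0.09, adjusted p = 8.99e-05), and without untreated replicate 5 the value was 0.48, under the threshold.

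ABCA1, which exports cholesterol to lipid-poor particles and is raised by the liver X receptors, was at 11.8, 15.3, 12.6, 7.68 and 11.5 CPM in untreated cells and at 15.6, 19.6, 16.4, 15.3 and 18.4 CPM at 1.5 h. At 7 days it was at 20.6, 19.5, 20.6, 20.8 and 20.9 CPM and in the knockdown at 12.1, 13.2, 13.0, 15.7 and 13.0 CPM. The 7 days libraries were all above the untreated ones, and those at 1.5 h and in the knockdown overlapped them. ABCA1 rose at 7 days (log2 fold change 0.79 ± 0.12, adjusted p = 6.20e-06) and at 1.5 h (0.53 ± 0.12, adjusted p = 0.00317), the early rise not passing without untreated replicate 4 (0.40) or 1.5 h replicate 2 (0.48).

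ABCG1, a second exporter, was at 49.3, 54.9, 54.0, 46.5 and 32.0 CPM in untreated cells, 42.1, 48.3, 49.4, 46.8 and 45.4 at 1.5 h, 42.3, 37.6, 42.5, 39.7 and 39.4 at 7 days and 52.7, 51.2, 55.0, 48.8 and 52.3 in the knockdown. Untreated replicate 5 was the lowest of all, and every 7 days library was below every knockdown library. MYLIP, the ligase that marks lipoprotein receptors for decay, averaged 22.4 ± 2.03 CPM in untreated cells, 19.4 ± 1.29 at 7 days and 21.4 ± 0.615 in the knockdown. Its 1.5 h libraries were at 19.4, 21.3, 20.7, 20.7 and 22.2 CPM. In the comparisons with untreated cells neither passed when lane was not a factor. NPC1L1 had from 0 to 4 counts per library in untreated cells, 0 to 3 at 1.5 h, 6 to 18 at 7 days and 1 to 4 in the knockdown, too few to be tested. In CPM it was at 0.0594, 0.0553, 0.1001, 0.0330 and 0 in untreated cells, 0.0762, 0, 0.0281, 0.0586 and 0.0283 at 1.5 h, 0.263, 0.394, 0.519, 0.396 and 0.215 at 7 days and 0.118, 0.0606, 0.0299, 0.0367 and 0.106 in the knockdown.

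Summed over the 19 genes of the mevalonate and sterol arms, the level was 2015, 1525, 1855, 2086 and 1696 CPM in untreated cells and 1948, 1865, 1605, 1807 and 1947 at 1.5 h. At 7 days it was 1167, 1154, 1157, 1188 and 1165 CPM and in the knockdown 1130, 1047, 1055, 977 and 989 CPM. Every late and knockdown library was below every untreated library, and the libraries at 1.5 h lay within the untreated range. The mean at 7 days was 63.5% of that in untreated cells and in the knockdown 56.7%. The 5 fatty acid genes summed to 50.3% of the untreated level at 7 days and 61.9% in the knockdown, led by SCD, FASN and FADS2.

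A second list holds 47 genes of the pathway that are not among the 35, which process SREBPs, move sterol or make related lipids. Of these 45 were tested, and at 7 days 5 rose and 5 fell, beside 16.7% and 14.4% of all genes, so that neither share exceeded that of all genes, with a median log2 fold change of -0.04. The largest rise was that of NPC1, which moves cholesterol out of lysosomes, from 42.9, 55.3, 48.6, 35.9 and 39.9 CPM in untreated cells to 122, 113, 133, 126 and 120 at 7 days (1.46 ± 0.09, adjusted p = 8.69e-12). LIPA, the lysosomal acid lipase, rose from 50.3 ± 4.004 to 101 ± 2.19 CPM (log2 fold change 1.0), and GRAMD1B, which takes up sterol at membrane contacts, from 20.3 ± 3.53 to 53.1 ± 3.83 (1.39 ± 0.09). The receptor genes SCARB1 and LRP1 rose with log2 fold changes of 0.76 and 0.63, and LRP1 did not pass without untreated replicate 4 (0.47). SOAT1 passed above without untreated replicate 1 (0.51), and RXRA (-0.53) and VLDLR (-0.57) below without untreated replicate 5.

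The 5 that fell at 7 days were the sterol reductase LBR (-0.86), the scaffold ERG28 (-0.77), the acyl-CoA synthetase ACSL3 (-0.76), COQ2 of ubiquinone synthesis (-0.69) and MID1IP1, a partner of acetyl-CoA carboxylase (-0.65). In the knockdown 3 fell, beside 7.53% of all genes, the sterol hydroxylase CYP27A1 (-0.87), TMEM97 (-0.76) and ERG28 (-0.65). By edgeR 0 rose there, beside 5.18% of all genes, with 11 higher at an unadjusted p under 0.05, where 23.5% of all genes were, and 0 by DESeq2, and NPC1 at 0.50 ± 0.09 lay at the threshold. It passed without untreated replicate 2 (0.59) or 3 (0.53) or knockdown replicate 1 (0.52), 2 (0.50) or 3 (0.51). With upper-quartile factors, total counts alone or the replicate number as a block, 1 of these pathway genes was higher in the knockdown. At 1.5 h edgeR found 0 higher and 0 lower, beside 2.08% and 1.57% of all genes, with 6 and 7 at an unadjusted p under 0.05, where 15.7% and 17.7% of all genes were, and 0 and 0 by DESeq2. The genes for the SREBP proteases MBTPS1 and MBTPS2 had log2 fold changes of 0.18 and 0.30 at 7 days and -0.06 and 0.19 in the knockdown, none past the threshold.

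Of these 45 genes, with lane as a factor, 10 were higher and 5 lower at 7 days, 3 higher and 1 lower at 1.5 h, and 5 higher and 4 lower in the knockdown. In that fit 41.3%, 25.5% and 27.3% of all genes were called in either direction, larger shares than those of the 45. At 7 days LRP1 (0.40), MID1IP1 (-0.27) and COQ2 (-0.24) no longer passed. Among those added above there were MBTPS2 (0.64, adjusted p = 0.00653), NR1H3 (0.51), NPC2 (0.77), SOAT1 (0.87) and FNTA (0.58), and among those below TMEM97 (-0.73). In the knockdown CYP27A1 did not pass (-0.37, adjusted p = 0.744).

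**Figure D5:**
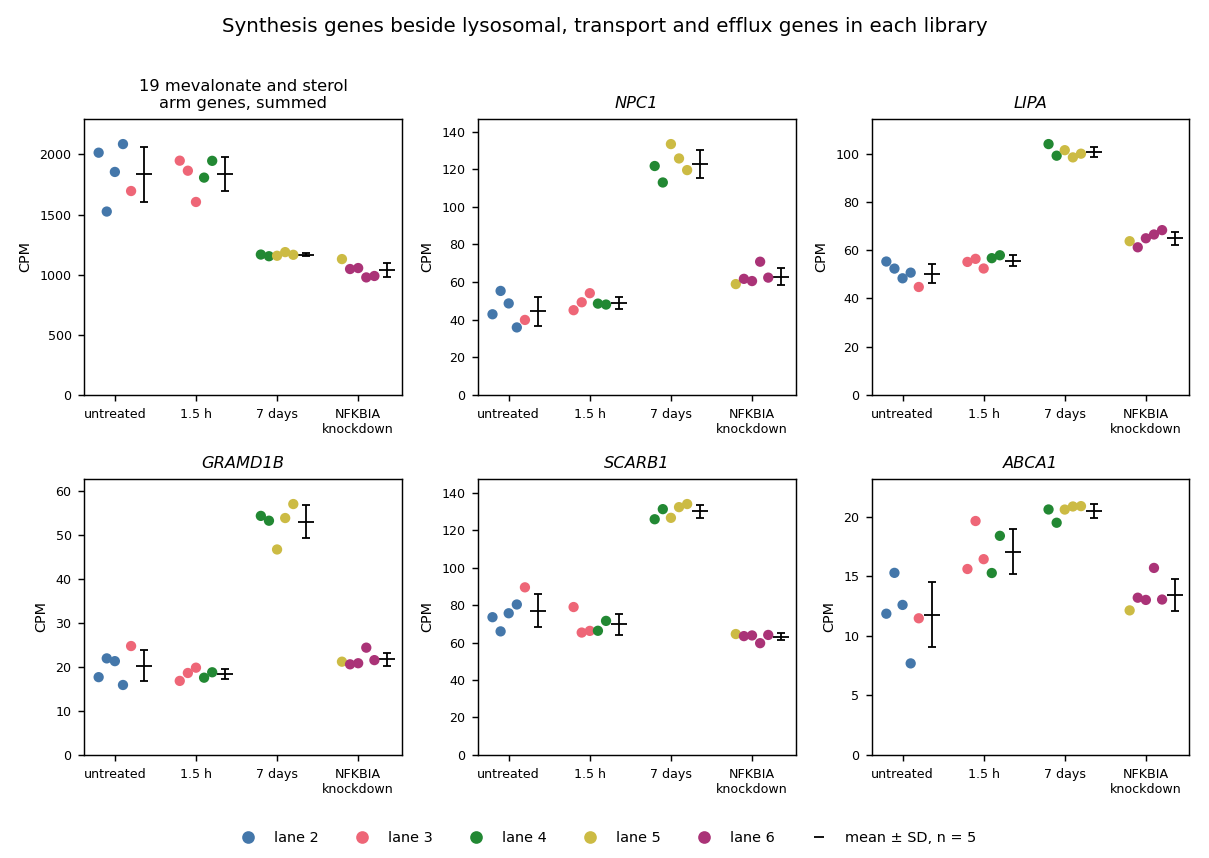
CPM in each library (points by lane, with the group mean and SD) of the sum of 19 mevalonate and sterol genes and of NPC1, LIPA, GRAMD1B, SCARB1 and ABCA1 in the 4 groups. The summed synthesis genes are low at 7 days and in the knockdown, and the 5 transport genes are highest at 7 days.

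The comparison of 7 days with 1.5 h asks how the late phase differs from the acute one and sets no untreated library on either side. Its standard errors and p values still use a spread estimated from all 20 libraries, untreated ones included. Of the 33 genes 20 fell, beside 12.6% of all genes, and edgeR found 0 that rose, beside 16.8%, with 2 higher and 26 lower at an unadjusted p under 0.05, where 33.6% and 30.4% of all genes were, and 0 higher by DESeq2. The median log2 fold change was -0.63, beside 0.01 over all genes. SCD (-1.43 ± 0.06), INSIG1 (-1.40 ± 0.11) and EBP (-1.29 ± 0.10) fell most, and SREBF1 (-0.93 ± 0.05) and SREBF2 (-0.64 ± 0.05) fell as well. STARD4 fell from its early high level (-0.63 ± 0.09), and HMGCS1, which did not pass at 7 days against untreated cells, fell here (-0.58 ± 0.10). ABCA1 did not pass (0.26 ± 0.12), nor did TM7SF2 (-0.45 ± 0.10), which passed without 1.5 h replicate 3 (-0.50) or 7 days replicate 2 (-0.51). In 25 genes every 7 days library was below every 1.5 h library and in 1, INSIG2, every one was above, beside 29.9% and 31.9% of all genes. In a fit of lane 4 alone, which held 2 libraries of each group, 21 genes were lower, SC5D being added at -0.51, where 29.1% of all genes were called in either direction.

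The comparison of 7 days with the knockdown tests directly where the late irradiated cells and the knockdown differ. Here 4 of the 33 genes were lower at 7 days and 3 higher, beside 9.89% and 15.8% of all genes, with a median of 0.02, beside 0.00. Without adjustment 10 were lower and 12 higher with p under 0.05, beside 29.8% and 31.5% of all genes. Lower at 7 days were SREBF1 (-1.77 ± 0.05, adjusted p = 2.12e-16), SCD (-0.86 ± 0.06, adjusted p = 8.73e-11), EBP (-0.61 ± 0.10, adjusted p = 2.35e-05) and ELOVL6 (-0.56 ± 0.05, adjusted p = 2.91e-09). Higher at 7 days were HMGCS1 (0.70 ± 0.10, adjusted p = 5.68e-06), ABCA1 (0.61 ± 0.12, adjusted p = 1.49e-04) and MSMO1 (0.60 ± 0.10, adjusted p = 2.10e-05). For SREBF2, INSIG1 and CYP51A1 the values were 0.01 ± 0.05, 0.02 ± 0.11 and -0.01 ± 0.08, with libraries that overlapped. In 12 genes every 7 days library was above every knockdown library and in 7 every one was below, beside 30.6% and 30.1% of all genes. If lane is a factor, this comparison rests on lane 5, where the knockdown is 1 library and the spread comes from all groups. There 6 genes were lower and 2 higher, beside 23.6% of all genes called in either direction: FADS2 (-0.55) and TM7SF2 (-0.58) were added and MSMO1 did not pass (0.41). TM7SF2, at -0.42 ± 0.10 without that factor, also passed without knockdown replicate 5 (-0.51).

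Of the 45 other pathway genes, 6 were higher and 3 lower at 7 days than in the knockdown, beside 15.8% and 9.89% of all genes, so that neither share exceeded that of all genes. With the replicate number as a block, or in a fit of only the groups compared, 4 were lower. Of 9 genes for lysosomal and membrane transport of sterol, NPC1 (0.96 ± 0.09), GRAMD1B (1.29 ± 0.09) and LIPA (0.63 ± 0.05) were higher and GRAMD1C (-0.53 ± 0.07) lower. Of 6 for uptake, esterification and hydroxylation, SCARB1 (1.04 ± 0.07), CYP27A1 (0.72 ± 0.24) and LRP1 (0.61 ± 0.12) were higher, while the receptor VLDLR was at -0.54 ± 0.24, adjusted p = 0.0637 and did not pass. The others lower were LBR (-1.0) and MID1IP1 (-0.68 ± 0.10). CYP27A1 (0.78, adjusted p = 0.173) and GRAMD1C (-0.42) did not pass with lane as a factor. Against 1.5 h, 5 were higher and 4 lower, beside 16.8% and 12.6% of all genes, with GRAMD1B at 1.53 ± 0.09 and NPC1 at 1.32 ± 0.09, and MID1IP1 (-0.46) was added below without 1.5 h replicate 1 (-0.52) or 2 (-0.51) or in lane 4 alone (-0.50).

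With lane as a factor, a value against untreated cells rests on untreated replicate 5, the only untreated library outside lane 2, and the spread comes from all libraries. At 7 days 17 genes were then lower and 3 higher. ACAT2 (-0.49), CYP51A1 (-0.35), MSMO1 (-0.10) and TM7SF2 (-0.33) no longer passed, ELOVL6 (-0.61) and FADS1 (-0.74) were added below, and INSIG2 (1.32) and STARD4 (0.54) above. SREBF2 was at -0.82, SREBF1 at -1.40, INSIG1 at -0.95, EBP at -1.44 and SCD at -1.64. In the knockdown, which is tied to untreated cells only through the other groups' lanes, 13 were lower and 2 higher, and SREBF1 at 0.35 no longer passed. MVK (-0.50), FDFT1 (-0.21), LSS (-0.42), CYP51A1 (-0.28), MSMO1 (-0.51), NSDHL (-0.74), EBP (-0.81) and SC5D (-0.44) did not pass either, those of NSDHL, EBP and MSMO1 on their adjusted p of 0.0508, 0.0534 and 0.0926, while FADS1 (-0.72) was added below and INSIG2 (1.42) and ABCG1 (0.71) above.

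At 1.5 h with lane as a factor, 5 genes were higher and 1 lower, beside 25.5% of all genes called in either direction: INSIG2 (0.99), INSIG1 (0.50), MSMO1 (0.54) and ABCG1 (0.54) joined STARD4 (1.12), FADS2 (-0.50) was added below, and ABCA1 (0.59, adjusted p = 0.0622) did not pass. Over all genes the number called rose from 548 to 3820 in that fit, and from 4657 to 6188 at 7 days and 1906 to 4088 in the knockdown. Lane and the departure of untreated replicate 5 cannot be told apart in these values.

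Other thresholds on the same fit changed the counts of the 33 genes and of all genes. By adjusted p under 0.05 alone, 28 were lower and 2 higher at 7 days, beside 31.2% and 32.9% of all genes, and 24 lower and 3 higher in the knockdown, beside 21.1% and 19.5%. At 1.5 h that rule gave 5 lower and 4 higher, beside 10.2% and 11.1%. It gave 25 lower at 7 days than at 1.5 h, beside 28.9%, and edgeR then found 0 higher, beside 32.0%. Between 7 days and the knockdown 10 were lower and 12 higher, beside 27.7% and 29.7%, shares near those of all genes. A log2 fold change above 1 left 6 lower at 7 days, beside 4.54% of all genes, 7 in the knockdown, beside 2.05%, 3 at 7 days against 1.5 h, beside 3.38%, and 1 at 7 days against the knockdown, beside 2.77%. With it edgeR found 0 lower at 1.5 h, beside 0.167%, and 0 higher in all these comparisons, beside 7.64% of all genes at 7 days, 0.434% at 1.5 h, 1.45% in the knockdown, 7.46% at 7 days against 1.5 h and 7.44% at 7 days against the knockdown. DESeq2 calls were not counted at this threshold.

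Some of these genes share exon bases with others, which matters for how reads were assigned. The study's methods describe stranded libraries, but whether the counting used the strand is not given in the sources used here. In GENCODE 29 the exons of 14 genes overlap another gene on the opposite strand, and for 7 of them that gene is also in the table. The largest such overlaps are with genes not analysed here, where ACAT2 shares 33.9% of its exon bases with SOD2-OT1 and 26.5% with SOD2, and FDPS 18.6% with RUSC1-AS1. Among genes in the table, ACAT2 shares 9.23% with TCP1 and SREBF1 6.92% with RAI1, while FADS1 and FADS2 share 490 bases with each other. On the same strand 5 genes overlap another, where strand does not tell reads apart. Of CYP51A1, 79.4% of exon bases are shared with AC000120.2, which was not analysed here, and of GGPS1 37.3% with TBCE. For 3 genes the other is in the table: GGPS1 with TBCE (matched by symbol), FADS2 with FEN1 and TM7SF2 with VPS51, the last pair of overlaps being 0.444% and 0.469% of exon bases. The part that such reads have in the levels was not tested.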

How the data were processed

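The authors deposited raw read counts, whole numbers for 20314 genes in 20 libraries, and these counts were used without other normalization. The submitters' processing notes name bcl2fastq, Trimmomatic, STAR 2.4.2a and the hg19 build. The read counter, the gene annotation and the strand setting of the counting are not given in the sources used here. Library totals are those of the table, from 22535659 to 40390961.

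edgeR 4.0.16 in R 4.3.3 was run with filterByExpr at a minimum count of 10, TMM scaling, and 1 quasi-likelihood fit with a term for each of the 4 groups. A figure legend of the study names another test, which was replaced by one for counts. Benjamini-Hochberg adjustment ran over the 14992 genes tested, and calls needed an adjusted p under 0.05 with a log2 fold change past 0.5 either way. For single genes a two-sided exact permutation test was run on log2 CPM (prior count 2), where 5 libraries against 5 can reach 0.00794 at the smallest. Standard errors of log2 fold changes came from the F statistic. The method was tested on simulated data.

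All listed genes were counted in every comparison. Among the lipid genes tested, per-library values are given for those that passed in a comparison, did not overlap or hold a regulatory role, and means for the rest. Genes of the other lists are given per library, by mean, by count or by log2 fold change alone. Other pathway genes, cell markers and checks of the labels came from separate lists. The genes and lists were chosen with earlier results of these data known. Motifs were searched in RefSeq windows, GRCh38.p14, without those of the lipid genes on chr8, and exon overlaps taken from GENCODE 29. Alternatives were other scaling factors, DESeq2 1.42.0, other filters and thresholds, a fit of the compared groups alone, the replicate number or lane as a factor, single lanes, and leaving out each library. Figures were drawn in Python 3.11.15 with matplotlib 3.10.9 and pandas 2.3.3.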

Additional observations from a re-analysis of the deposited data

Results flagged for a closer look

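In 6 of 148 groups of 5 libraries, 1 library stood far from the other 4 of its group by Dixon's ratio, where chance gives about 1 in 20 groups, or 7.4. Among untreated libraries, MKI67 was at 1817 CPM in replicate 5 (others 434 to 801), MYLIP at 18.8 CPM in replicate 5 (others 22.6 to 23.9) and PMVK at 45.2 CPM in replicate 4 (others 31.7 to 34.6). At 1.5 h, SQLE was at 187 CPM in replicate 3 (others 219 to 232) and INSIG2 at 25.6 CPM in replicate 2 (others 23.7 to 24.2). At 7 days, ABCA1 was at 19.5 CPM in replicate 2 (others 20.6 to 20.9). The causes were not tested.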

How the results depend on the processing

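Counts below are of the 33 lipid genes. RLE factors, a fit of only the groups compared and DESeq2 left all 10 counts within 1.5 times the reported ones, as did upper-quartile factors and total counts alone. Over these, the 2 filters and the replicate block, 8 settings in all, 1320 log2 fold changes gave 0 gained calls, 0 reversed and 5 lost, which were MSMO1 at 7 days (-0.48 with total counts alone) and, in the knockdown, SC5D (-0.49 with upper-quartile factors, -0.45 with total counts alone) and SREBF1 (0.50 under each filter). With adjusted p alone, 2 genes were higher at 7 days (32.9% of all genes), 4 higher and 5 lower at 1.5 h (11.1% and 10.2%), 3 higher in the knockdown (19.5%), and 12 higher and 10 lower at 7 days against the knockdown (29.7% and 27.7%). With a log2 fold change above 1 in edgeR, 0 were higher and 6 lower at 7 days (7.64% and 4.54% of all genes), 0 higher at 1.5 h (0.434%), 0 higher and 7 lower in the knockdown (1.45% and 2.05%), 3 lower at 7 days against 1.5 h (3.38%), and 0 higher and 1 lower at 7 days against the knockdown (7.44% and 2.77%). With no filter, 2 were higher at 7 days and 1 at 7 days against 1.5 h, NPC1L1 then being tested, and 0 were higher in the knockdown, where at least 10 counts in every library also gave 0. Of 19097 genes tested without a filter, 5623, 5348 and 2028 were called in either direction in these 3 comparisons. With at least 10 counts in every library, 1568 of 13703 were called in the knockdown.

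With lane as a factor, 3 were higher at 7 days, 5 higher and 1 lower at 1.5 h, and 2 higher and 13 lower in the knockdown. STARD4 at 7 days turned from -0.04 to 0.54, and ABCG1 at 1.5 h from -0.03 to 0.54. The cause was not tested. The contrasts within lane 3 (1 untreated library) and lane 5 (1 knockdown library), with the spread from all groups, gave the same values as lane as a factor and are no separate check. Without them, 198 values over lane as a factor and lane 4 alone gave 15 lost calls, 13 gained and 2 reversed.

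Leaving out 1 library at a time gave 18 to 19 lower and 1 to 1 higher at 7 days, 1 to 2 higher and 0 to 0 lower at 1.5 h, 19 to 21 lower and 0 to 1 higher in the knockdown, 20 to 21 lower and 0 to 0 higher at 7 days against 1.5 h, and 4 to 5 lower and 3 to 3 higher at 7 days against the knockdown. Of 1650 values 9 calls were lost, 5 gained and 0 reversed. Over all genes, 15043 to 15098 were tested in those fits. Called in either direction were 4608 to 4888 at 7 days, 460 to 689 at 1.5 h and 1798 to 2146 in the knockdown. At 7 days against 1.5 h 4354 to 4481 were called, and against the knockdown 3814 to 3895.

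With the replicate number as a block, the counts were 1 higher and 19 lower at 7 days, 2 and 0 at 1.5 h, 1 and 20 in the knockdown, 0 and 20 at 7 days against 1.5 h, and 3 and 4 at 7 days against the knockdown. In the same order, 4628, 496, 1849, 4403 and 3857 of all 14992 genes were called in either direction. Over 30 pairs of libraries with the same number in different groups, correlations, over the genes tested, of log2 CPM minus the group's mean ran from -0.254 to 0.123, 2 over 0.1, and 4 were best with their own number, so the numbers were not read as pairs.

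Depth limits NPC1L1, whose highest count was 18, and the low-level markers, and no protein, sterol or SREBP cleavage was measured in these libraries.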

Other observations

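Some marker genes of the cell line moved between groups. COL1A1, a collagen chain of bone matrix, was at 1901, 1838, 2020, 1733 and 2375 CPM in untreated cells and at 657, 651, 601, 598 and 576 CPM in the knockdown, where every library was lower (log2 fold change -1.68 ± 0.07, adjusted p = 4.45e-13). SPARC, a matrix protein, averaged 2137 ± 82.8 CPM in untreated cells and 1275 ± 85.8 at 7 days, a log2 fold change of -0.75 ± 0.05.

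Markers of other tissues went both ways at 7 days. Of the 16 markers 11 were tested, of which 1, FABP4, rose at 7 days, beside 16.7% of all genes. FABP4 passed the count filter only through its 7 days libraries, so its call adds no support for a rise. Another 3 fell at 7 days, SPARC, EPCAM and CDH1, beside 14.4% of all genes. EPCAM averaged 3.40 ± 0.708 CPM in untreated cells and 1.88 ± 0.160 at 7 days (-0.86 ± 0.12, adjusted p = 4.39e-06), but with lane as a factor it did not pass (-0.73, adjusted p = 0.0602). ALB had 9 to 19 counts per library at 7 days and 0 to 1 in every other library, and FABP4 had 12 to 19 at 7 days, 0 to 2 in untreated cells and 0 to 3 at 1.5 h, while PLIN1 of the same adipocyte list had 1 to 10 counts in untreated cells and 0 to 7 at 7 days, and APOA1, beside ALB for hepatocytes, 9 to 29 and 13 to 24. CDH1, the epithelial cadherin, averaged 1.83 ± 0.515 CPM in untreated cells, 1.096 ± 0.274 at 7 days (-0.72 ± 0.20, adjusted p = 0.00325) and 0.440 ± 0.134 in the knockdown (-2.01 ± 0.23, adjusted p = 7.51e-07), and PTPRC 1.05 ± 0.331 in untreated cells and 0.346 ± 0.137 in the knockdown (-1.52 ± 0.24, adjusted p = 4.46e-05). APOA1 also fell in the knockdown, from 0.506 ± 0.253 to 0.165 ± 0.130 CPM (-1.56 ± 0.42, adjusted p = 0.00533), but did not pass with lane as a factor (-2.01, adjusted p = 0.329). With COL1A1 these were the 4 markers that fell there, beside 7.53% of all genes.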
